A study of Mus musculus with 4 samples.

Results

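Mature oligodendrocyte-like nuclei are the nuclei of this mouse medial prefrontal cortex data set that carried the most RNA of 5 oligodendrocyte marker genes: Mog, Mag, Mobp, St18 and Prr5l. Each nucleus was scored by its mean log-scaled level of these 5 genes, and the 750 highest-scoring nuclei with at least 3 of the 5 detected were taken, out of 13270 nuclei kept after filtering and 22402 deposited barcodes. They made up 5.65% of the kept nuclei, a share set by the fixed number of 750 and not an estimate of abundance. The other 12520 kept nuclei are the set they are described against. All 5 markers were detected in 582 of the 750 nuclei and 4 of them in the remaining 168. The lowest score among them was 2.1458 and the highest outside was 2.1430. The 50 nuclei just inside that limit held 535 UMIs of Mog, 567 of Mag and 1558 of Mobp in each 1000000 UMIs (CPM), and the 50 just outside held 438, 482 and 1085. A further 403 nuclei had at least 3 of the markers and a lower score. The cut therefore falls within a continuous range of scores and not at a gap.

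The study profiled nuclear RNA of single nuclei from the medial prefrontal cortex, in C57BL/6J mice aged 9 weeks. DOI, a psychedelic agonist of the Htr2 family of serotonin receptors, had been given 24 hours earlier to 2 of the 4 samples, 1 female and 1 male, and saline to the other 2 samples, again 1 female and 1 male. All 4 samples are labelled as carrying scFLARE2, a tool that marks neurons active during illumination, and a TRE-driven construct coding for mCherry, the p2a peptide and the opsin bReaChES. How many mice were pooled for a sample is not given in the sources used here. A suffix on each barcode, 1 to 4, tells 4 libraries apart, and nothing used here says which library is which sample. No DOI sample was therefore compared with a saline sample, and no sex with the other. Values are given for the pooled nuclei and for libraries 1 to 4 by number.

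The matrix held 157575088 UMIs (unique molecular identifiers, each standing for 1 captured RNA molecule), with 19968985 to 57947155 per library. The oligodendrocyte-like nuclei came from all 4 libraries, with 250, 187, 183 and 130 nuclei in libraries 1 to 4. These were 5.81%, 5.26%, 11.5% and 3.41% of the kept nuclei of each library. Library 3 stood apart with the largest share, the fewest kept nuclei (1596) and the lowest mitochondrial content, a median of 1.71% of UMIs in its oligodendrocyte-like nuclei against 2.86%, 3.03% and 4.05% in those of libraries 1, 2 and 4. The share of a library depends on which barcodes passed the filter, since 8638 barcodes were removed for over 5% mitochondrial UMIs. The oligodendrocyte-like nuclei were shallow, with a median of 2905.5 UMIs and 1549.5 genes, against a median of 9334 UMIs in the other kept nuclei. Of them, 7 carried a barcode sequence that also occurs in another library.

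The name was checked against markers of other cell types. The summed level of 7 pan-neuronal genes was 1732 CPM in the oligodendrocyte-like nuclei against 18106 in the other nuclei. It ranged from 1033 in library 3 to 2507 in library 4. The summed level of 8 astrocyte genes was 642 against 789 CPM, that of 8 microglial genes 193 against 200, and that of 5 globin and red cell genes 106 against 176. None of these 4 lists had a gene at 0. The summed level of 5 peripheral myelin (Schwann cell) genes was 5.78 against 8.17 CPM. The pan-neuronal sum was 9.57% of that in the other nuclei, the excitatory neuron sum 35.1% and the inhibitory neuron sum 58.8%. The inhibitory sum covers 5 of the 6 listed genes. It leaves out Erbb4, which was called higher and whose level in the oligodendrocyte-like nuclei was far above that sum. The microglial and endothelial sums were 96.3% and 109%. The endothelial sum, at 9.90 against 9.12 CPM, was thus above the other nuclei. So were those of pericyte and fibroblast genes, at 18.2 against 9.12 CPM, and of committed precursor genes, at 575 against 44.7 CPM. The choroid and ependyma sum was also above, at 4.13 against 1.43 CPM with 2 of 5 genes at 0. The part of RNA of other cell types in the results below was not tested. The nuclei were shallower than the others, as given above, and a chosen marker, Prr5l, was among the 10 genes with the largest ratio.

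Oligodendrocytes wrap axons of the central nervous system in myelin, a stack of lipid-rich membrane held together by a small set of abundant proteins. They arise from proliferating precursor cells that express Pdgfra and Cspg4, pass through a brief committed stage marked by Gpr17, Bmp4 and Enpp6, and then express the myelin genes. The transcription factors Sox10 and Myrf drive myelin gene expression, and mature cells also supply axons with metabolites and buffer potassium. New oligodendrocytes continue to form in the adult cortex.

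The promoters of 4 myelin genes are shown because they hold short motifs of the factors named above within the window around the start of genes that are high in these nuclei. The sequences are from the RefSeq promoter table (GRCm38.p6) and run from 250 bases before the annotated start to 50 bases after it, 5′ to 3′ on the strand of the gene. Capitals mark matches to the core of the MYRF motif (CTGGCAC or CTGGTAC, either strand) and to the SOX core (ACAAAG or AACAAT, either strand). Mag, at chr7:30914814-30915113 on the minus strand, codes for a glycoprotein of the membrane facing the axon. Cnp, at chr11:100574689-100574988 on the plus strand, codes for a phosphodiesterase of non-compact myelin. Mog, at chr17:37023349-37023648 on the minus strand, codes for a protein of the outermost myelin surface. Opalin, at chr19:41077064-41077363 on the minus strand, codes for a membrane protein of mature oligodendrocytes.
Mag: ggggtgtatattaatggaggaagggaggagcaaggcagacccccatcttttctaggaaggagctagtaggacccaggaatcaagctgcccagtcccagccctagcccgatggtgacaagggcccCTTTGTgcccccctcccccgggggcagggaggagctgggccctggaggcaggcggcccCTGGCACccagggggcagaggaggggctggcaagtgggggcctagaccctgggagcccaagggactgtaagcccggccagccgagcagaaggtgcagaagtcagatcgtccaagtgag
Cnp: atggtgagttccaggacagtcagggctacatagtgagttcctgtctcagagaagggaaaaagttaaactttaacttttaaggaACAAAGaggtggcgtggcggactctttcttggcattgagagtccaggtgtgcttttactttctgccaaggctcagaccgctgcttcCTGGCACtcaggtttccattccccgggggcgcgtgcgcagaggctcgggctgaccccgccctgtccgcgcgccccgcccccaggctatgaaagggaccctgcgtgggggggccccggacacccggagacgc
Mog: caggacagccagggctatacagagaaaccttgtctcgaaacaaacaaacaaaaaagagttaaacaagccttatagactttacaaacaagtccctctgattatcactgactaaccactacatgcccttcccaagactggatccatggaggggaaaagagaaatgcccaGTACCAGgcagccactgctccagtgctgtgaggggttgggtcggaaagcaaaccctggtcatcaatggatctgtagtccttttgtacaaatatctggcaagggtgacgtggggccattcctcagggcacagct
Opalin: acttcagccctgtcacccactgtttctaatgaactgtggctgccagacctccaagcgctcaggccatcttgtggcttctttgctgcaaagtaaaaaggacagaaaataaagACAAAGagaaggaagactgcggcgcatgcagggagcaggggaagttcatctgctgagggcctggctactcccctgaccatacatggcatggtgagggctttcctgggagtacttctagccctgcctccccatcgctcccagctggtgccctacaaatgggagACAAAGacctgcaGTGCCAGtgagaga
The printed Mag and Cnp promoters have 1 match to each core. A further Mag entry, at chr7:30914272-30914571, has no match to either. Opalin has 1 MYRF and 2 SOX matches, of which the MYRF match and 1 SOX match lie after the annotated start, and Mog 1 MYRF match and no SOX match.

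Of the 18 genes in the list of structural myelin proteins, 14 had an entry in the promoter table. A gene with several entries was counted if any of them held the motif. A MYRF core was present in 6 of the 14 (42.9%), namely Mog, Mag, Cnp, Opalin, Gpr62 and Tmem125, while 8.10% of the 27025 genes with an entry had one. Within the 250 bases before the start alone it was present in 4 of the 14 (28.6%), against 6.79% of all genes. A SOX core was present in 6 of the 14 (42.9%), namely Mobp, Mag, Cnp, Opalin, Tspan2 and Tmem88b, against 30.0% of all genes. The SOX share was the closer of the 2 to that of all genes. The E-box motif CAGCTG or CATCTG, which basic helix-loop-helix factors such as Olig2 bind, occurred in 6 of the 14 and in 33.4% of all genes. Among these promoters no match of one motif overlapped a match of another, although CAGCTG and CTGGCAC can share letters. A match is a description of these letters and does not show binding.

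Levels below are CPM, the UMIs of a gene in each 1000000 UMIs of the nuclei in question, and ratios are on the log2 scale with an exact conditional binomial 95% interval that covers counting error only. A gene was called higher or lower where the nuclei compared held 100 or more of its UMIs, it differed at least 2-fold, and had the same sign in each library with UMIs. This is a rule of size and not a test. The nuclei were chosen by marker RNA in these same libraries, so every comparison with the other nuclei is a description. Against all other kept nuclei 16781 genes were tested, of which 2686 (16%) were called higher and 4164 (24.8%) lower, with a median log2 ratio of 0.06. The lists of genes were put together with earlier results of these data known.

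Structural myelin genes were far higher than in the other nuclei. Leaving out Mog, Mag and Mobp, which chose the nuclei, 14 of 14 tested members were called higher, against 16% of all genes. Their median log2 ratio was 4.52. Tmem125, with 29 UMIs, was under the minimum. Mbp, the basic protein that zips the cytoplasmic membrane faces together, had 4382, 3018, 3477 and 3639.8 CPM in oligodendrocyte-like nuclei of libraries 1 to 4 and 161, 116, 121 and 162 in the other nuclei (log2 ratio 4.66, 4.63 to 4.70). All 4 libraries were thus far apart from the other nuclei. Tspan2, a tetraspanin of myelin, had 582, 507, 575 and 589 against 11.97, 11.5, 9.64 and 10.6 CPM (log2 ratio 5.67, 5.56 to 5.78). Its 4 values lay within a narrower range than those of Mag, which had 839.7, 832, 1229 and 725 CPM with its highest value in library 3. Among the lower ratios of the list were Cnp at 2.69 (2.53 to 2.86) and Myo1d, an unconventional myosin, at 2.998 (2.89 to 3.10). Cldn11, the claudin that seals myelin layers, reached 4.82 and Ermn, which codes for the cytoskeletal protein ermin, 5.99. Ermn overlaps Galnt5 on the opposite strand and Cnp overlaps Dnajc7. Whether counting used strand is not given in the sources used here.

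**Figure D1:**
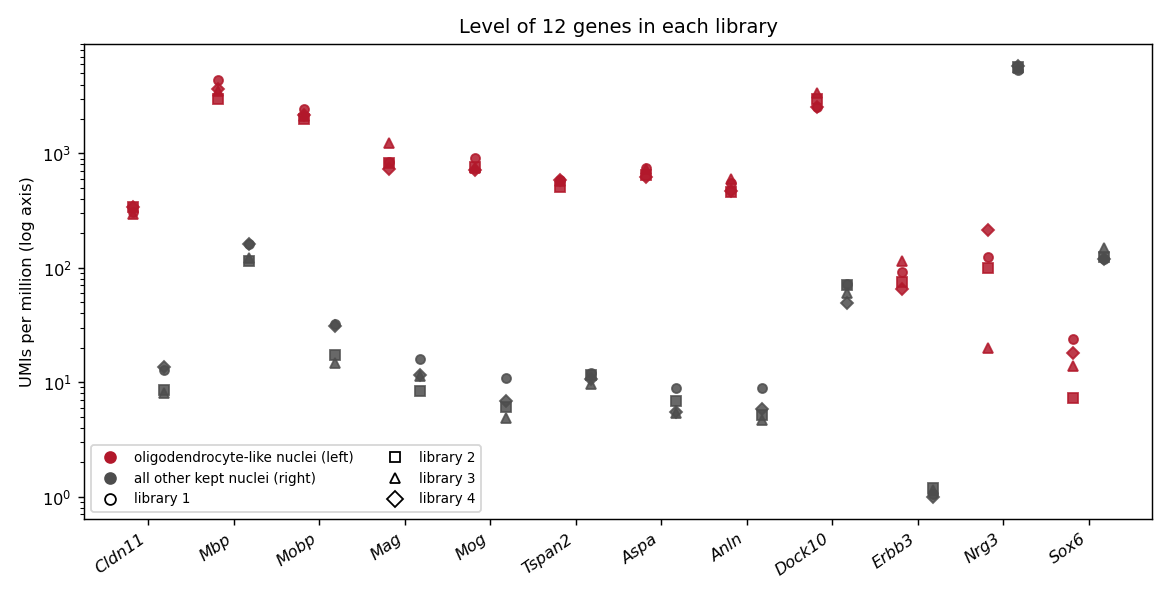
Levels of 12 genes in CPM (log axis) in oligodendrocyte-like nuclei (red, left of each pair) and all other kept nuclei (grey, right), with 1 point for each of libraries 1 to 4, marked by shape. For 10 genes the 4 red points lie above the 4 grey ones, and for Nrg3 and Sox6 below them. Of the 10, Mobp, Mag and Mog helped choose the nuclei, so their separation is set by that choice. Nrg3 has the widest spread among the red points, with 19.99 in library 3 and 212 in library 4.

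Genes of the axon-glia contact and of gap junctions were more often higher than lower. Of 17 tested, 10 were called higher and 2 lower, with a median log2 ratio of 1.79, against 16% higher and 24.8% lower over all genes. Hapln2, a link protein of the matrix at nodes of Ranvier, had 257, 162, 203 and 181 against 3.83, 2.04, 1.72 and 2.09 CPM (log2 ratio 6.35, 6.14 to 6.55). Ninj2, an adhesion protein, had 465, 436, 554 and 433 against 5.59, 4.74, 5.62 and 4.37 (6.58, 6.44 to 6.72). These were the members with the largest ratios. The oligodendrocyte connexin genes Gjc3 and Gjb1 had log2 ratios of 5.65 and 5.10, while Gja1, the main astrocyte connexin gene, was not called at 0.59. Rtn4, which codes for the neurite outgrowth inhibitor Nogo, was higher at 2.24 (2.19 to 2.29). Its receptor component Lingo1 was lower at -1.39, as was the synaptic adhesion gene Cadm2 at -1.79. Nfasc, whose glial form anchors paranodal loops, was higher at 1.79 (1.73 to 1.86), and the node scaffold gene Ank3 was not called at 0.38.

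Of 21 transcription factor genes tested without St18, 13 were called higher and 2 lower, against 16% and 24.8% of all genes. Their median log2 ratio was 1.95. Myrf, the factor that switches on myelin genes, had 128, 134, 215 and 139.5 against 2.92, 3.18, 2.98 and 3.04 CPM (log2 ratio 5.68, 5.47 to 5.89). Sox10, which acts through the whole lineage, had 246, 227, 239.9 and 145 against 8.82, 5.88, 8.49 and 6.44 CPM (4.91, 4.75 to 5.07). Nkx6-2, a homeodomain factor of myelinating cells, had 52.2, 56.3, 72.3 and 47.1 against 1.62, 1.20, 0.918 and 1.56 CPM (5.36, 5.03 to 5.69). All 3 were separate from the other nuclei in each library. Zfp536, a zinc finger gene, reached 4.54, Olig1 3.12, Olig2 3.47 and Sox8 2.28. On the other side, Sox5 had 19.4, 34.5, 29.2 and 28.99 against 364, 400.3, 401 and 413 CPM (-3.84, -4.20 to -3.49). Sox6 had 23.9, 7.26, 13.8 and 18.1 against 119.8, 124, 150.2 and 119 CPM (-2.95, -3.45 to -2.501). Sox5 and Sox6 code for factors that hold precursors back from differentiation, and they were the only 2 of the list called lower. With a mitochondrial limit of 1% in place of 5%, the same rule took 97 nuclei, of which 43 are among the 750, and in that set Sox6 was higher at 1.27.

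Of 30 lipid synthesis genes tested, 18 were called higher and 1 lower, against 16% and 24.8% of all genes. Their median log2 ratio was 1.38. Ugt8a, which makes galactosylceramide, had 579, 566, 690.4 and 496 against 14.7, 13.9, 12.5 and 12.3 CPM (log2 ratio 5.45, 5.35 to 5.56). Fa2h, which hydroxylates its fatty acid, had 535, 470.3, 558 and 435 against 8.46, 6.06, 6.77 and 5.91 CPM (6.22, 6.09 to 6.35). Gal3st1, which adds the sulfate of sulfatide, reached 4.83, and Cers2, the synthase for very long chain ceramides, 3.37. Aspa, which frees acetate from N-acetylaspartate for lipid synthesis, had 752, 648, 735 and 616 against 8.82, 6.86, 5.39 and 5.43 CPM (6.69, 6.57 to 6.81). It was the largest ratio of the list. Hmgcs1, an early enzyme of the cholesterol pathway, was not called at 0.97 (0.74 to 1.19). Nor were the later enzymes of the pathway Sqle at 0.98, Cyp51 at 0.95 and Dhcr7 at 0.03. Fdps at 1.36 and the sterol sensor partner Insig1 at 2.18 were called higher. Sgms1, a sphingomyelin synthase gene, was the member called lower, at -1.36.

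Of 23 cytoskeleton genes tested, 20 were called higher and none lower, against 16% and 24.8% of all genes. Their median log2 ratio was 3.48. Anln, which codes for the septin-binding protein anillin, had 552, 463, 599.7 and 469 against 8.85, 5.19, 4.65 and 5.80 CPM (log2 ratio 6.38, 6.25 to 6.51). Its partner septin Sept4 reached 3.65 and Sept7 2.89, while Sept8 was not called at 0.32. Dock10, an activator of small GTPases that shape the actin cytoskeleton, had 2556, 2981, 3343 and 2518 against 71.8, 70.5, 59.95 and 48.9 CPM (5.52, 5.47 to 5.57), and its relative Dock5 reached 6.14. Tubb4a, the tubulin gene mutated in a human leukodystrophy, was higher at 3.51, and the microtubule binding gene Map7 at 3.57. The 3 members not called were Sept8, Dst and Kif21a.

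Of 30 receptor and related genes tested, 13 were called higher and 9 lower, with a median log2 ratio of 0.68. Over all genes 16% were higher and 24.8% lower, so the share lower was near that of all genes. Erbb3, a neuregulin receptor of glia, had 90.98, 74.4, 114 and 65.2 against 1.05, 1.20, 1.15 and 0.989 CPM (log2 ratio 6.34, 6.02 to 6.66). The neuregulin Nrg3 had 124, 99.9, 19.99 and 212 against 5346, 5690.04, 5614 and 5858 CPM (-5.67, -5.85 to -5.500). Erbb3 was thus above and Nrg3 below the other nuclei in each library. Erbb4, the neuronal receptor of the family, was at 1.03, and without library 1 it was 0.93 and no longer called. The semaphorin receptor gene Plxnb3 reached 5.29, the netrin receptor gene Unc5b 4.67 and Unc5c 2.21, while the netrin receptor gene Dcc was lower at -1.03 and Plxna4 at -4.18. Fgfr2, the fibroblast growth factor receptor of the mature lineage, was higher at 1.97 and Fgfr1 was lower at -1.96. In the gene annotation read for overlaps, Fgfr2 spans 2960900 bases. It overlaps 22 genes on its own strand and 26 on the opposite one, and their part in its value was not tested. The sphingosine phosphate receptor gene S1pr5 reached 4.89, the orphan receptor gene Gpr37 4.44 and the adaptor gene Gab1 5.31. The neurotrophin receptor genes Ntrk2 and Ntrk3 were lower at -3.10 and -4.13.

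Channel, transporter and support genes were called higher for 20 of 28 tested and lower for 2, against 16% and 24.8% of all genes. Their median log2 ratio was 2.02. Trf, the iron carrier transferrin, had 577, 699, 1099 and 716 against 29.7, 26.1, 28.2 and 32.97 CPM (log2 ratio 4.71, 4.63 to 4.79). Library 3 had the highest Trf value, whereas the ferritin gene Fth1 had its lowest value there, with 944, 868, 566 and 1256 against 301, 289.9, 167 and 472 CPM (1.41). Car2, a carbonic anhydrase, had 413, 514, 578 and 500.05 against 13.7, 16.2, 10.8 and 18.5 CPM (5.01, 4.90 to 5.11). Kcnj10, the inward rectifier that takes up potassium, was higher at 3.65, Kcna1 at 2.53 and the sodium-calcium-potassium exchanger gene Slc24a2 at 2.79. Pde4b and Pde8a, which break down cyclic AMP, were at 3.43 and 5.39. Slc16a1, the lactate transporter linked to axonal support, was not called at 0.65 on 33 UMIs, and Ldha was not called at 0.61. The potassium channel gene Kcnk10 at -3.59 and the cation channel gene Trpm3 at -3.496 were lower.

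**Figure D2:**
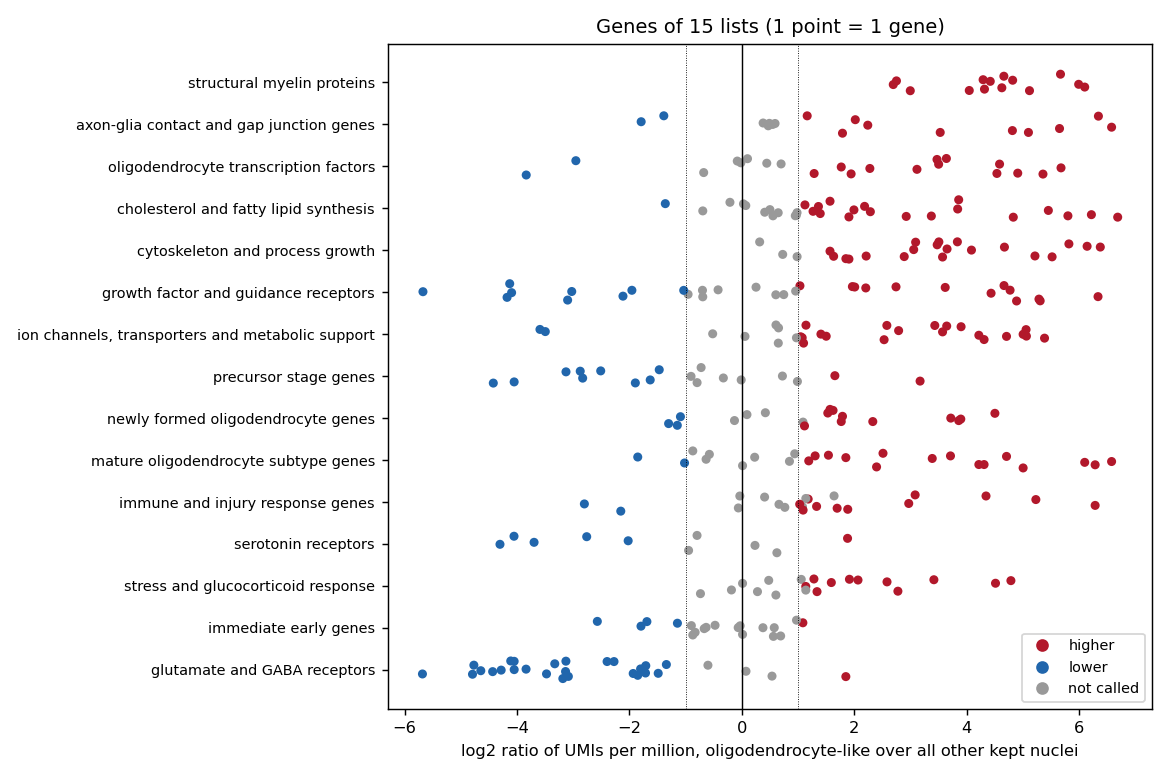
Log2 ratio of CPM in oligodendrocyte-like over all other kept nuclei for the genes of 15 lists, with 1 point a gene and dotted lines at 2-fold. Genes called higher are red, lower blue and not called grey, without the 5 markers that chose the nuclei, genes under the minimum and genes with no UMI in the oligodendrocyte-like nuclei. The structural myelin points all lie right of the 2-fold line. Of 30 glutamate and GABA receptor genes 26 were called lower, against 24.8% of all genes.

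The oligodendrocyte-like nuclei were next set against 2 earlier stages of the same lineage, chosen by marker level in the same way. The 300 precursor-like nuclei scored highest on Pdgfra, Cspg4, Vcan, C1ql1 and Lhfpl3, and the 75 committed precursor-like nuclei on Gpr17, Bmp4, Neu4, Enpp6 and Bcas1. Their median depths of 4055.5 and 5119 UMIs were above the 2905.5 of the mature class. Against precursor-like nuclei 6267 genes were tested, of which 878 (14%) were higher and 942 (15%) lower, with a median log2 ratio of 0.11. Against committed precursor-like nuclei 5028 were tested, of which 811 (16.1%) were higher and 502 (9.98%) lower, with a median of 0.19. All of these counts depend on the marker choice of both classes. Against all other kept nuclei, 15 of 24 mature subtype genes were higher and 2 lower (median log2 ratio 1.70). Of 18 newly formed oligodendrocyte genes 11 were higher and 3 lower (1.55). Of 19 precursor stage genes 2 were higher and 10 lower (-1.47). Over all genes 16% were higher and 24.8% lower in that comparison. The genes are described in 3 patterns with levels given from precursor-like through committed precursor-like to mature nuclei.

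The first group was near its mature level already in committed precursor-like nuclei. Mbp had 131, 2425 and 3660.01 CPM in the 3 classes, so that the mature class was 0.59 log2 units (0.503 to 0.69) above the committed class and not called. Cldn11 had 21.9, 186 and 319 CPM (0.78, 0.45 to 1.12). Both were called higher than in precursor-like nuclei, at 4.80 and 3.86. Myrf was likewise at 0.47 (0.044 to 0.93) against the committed class and 3.04 against the precursor class. The sulfatide gene Gal3st1 was at 0.29 and 1.54, and the fatty acid elongase gene Elovl7 at -0.14 and 3.22. Of 13 structural myelin genes tested, 8 were called higher than in committed precursor-like nuclei and 12 higher than in precursor-like nuclei. Over all genes these shares were 16.1% and 14%.

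The second group was low in both earlier classes. Mal, which codes for a raft protein of compact myelin, had 37.8, 26.9 and 347 CPM (log2 ratio to the committed class 3.69, 2.88 to 4.65). Opalin had 3.78, 4.49 and 186 CPM (5.37, 3.51 to 8.42). Ermn had 9.82, 2.24 and 283 CPM (6.98, 4.499 to 12.29), on 1 UMI in the committed class. Opalin and Ermn were close to absent in the committed class, while Mal was low but present in both earlier classes. Aspa had 12.8, 6.73 and 693 CPM (6.69, 5.14 to 8.97), on 3 UMIs in the committed class. Hapln2 had 4.53, 6.73 and 203 CPM (4.92, 3.36 to 7.20), on 3 UMIs in the committed class, Trf 40.8, 29.2 and 777 (4.74), Car2 20.4, 22.4 and 500.1 (4.48) and Anln 19.6, 15.7 and 526 (5.07). Plekhh1, a gene for a pleckstrin homology domain protein, had no UMI in the committed class and was at least 61.1-fold higher in the mature class against a floor of 3 UMIs over the class. On the same floor Il33, which codes for an alarmin cytokine, was at least 41.8-fold higher, Dock5 at least 29.9-fold and the lipid transporter gene Abca8a at least 12.9-fold. The metabotropic glutamate receptor gene Grm3 also belonged here, with 125, 71.8 and 1355 CPM (4.24, 3.74 to 4.79), as did Slc24a2 with 141, 175 and 5079 (4.86). Of 15 mature subtype genes tested, 13 were called higher than in the committed class and none lower, against 16.1% and 9.98% of all genes. Their median log2 ratio was 3.34.

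The third group peaked in committed precursor-like nuclei or was lost after the precursor stage. Of 12 newly formed oligodendrocyte genes tested without the choosing markers, 9 were called lower than in the committed class and none higher. Over all genes 9.98% were lower and 16.1% higher. The median log2 ratio of the 12 was -2.65. Tcf7l2, a Wnt pathway transcription factor, had 179.8, 1819 and 83.4 CPM (-4.45, -4.68 to -4.22). Itpr2, a calcium release channel gene of differentiating cells, had 493, 1451 and 23.1 (-5.97, -6.39 to -5.58), and Pik3r3, a regulatory subunit of phosphatidylinositol 3-kinase, 109.6, 2940.5 and 121 (-4.60, -4.79 to -4.42). All 3 were at a maximum in the committed class. The kinase gene Fyn, which starts local myelin translation, had 314, 3057 and 97.8 CPM (-4.97), and Nfasc had 227, 4028 and 823 (-2.29). The matrix gene Tnr had 4355, 9241 and 37.1 CPM (-7.96, -8.28 to -7.66), and Sox6 1789, 2566 and 16.1 (-7.32, -7.82 to -6.86). These 2 kept precursor-like or higher levels in the committed class and were low in the mature one. Ptprz1, a phosphatase of precursors, had 2868, 583 and 37.5 CPM (-3.96), Pcdh15 3660.5, 657 and 127 (-2.37) and Sox5 1205, 462 and 27.6 (-4.06). In the 97 nuclei taken with the 1% mitochondrial limit, of which 43 are among the 750, Pcdh15 was higher than in the committed class, at 2.32. Of 11 precursor stage genes tested against the precursor class, without its own markers, all 11 were lower in the mature class (median log2 ratio -6.21). Over all genes 15% were lower in that comparison.

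**Figure D3:**
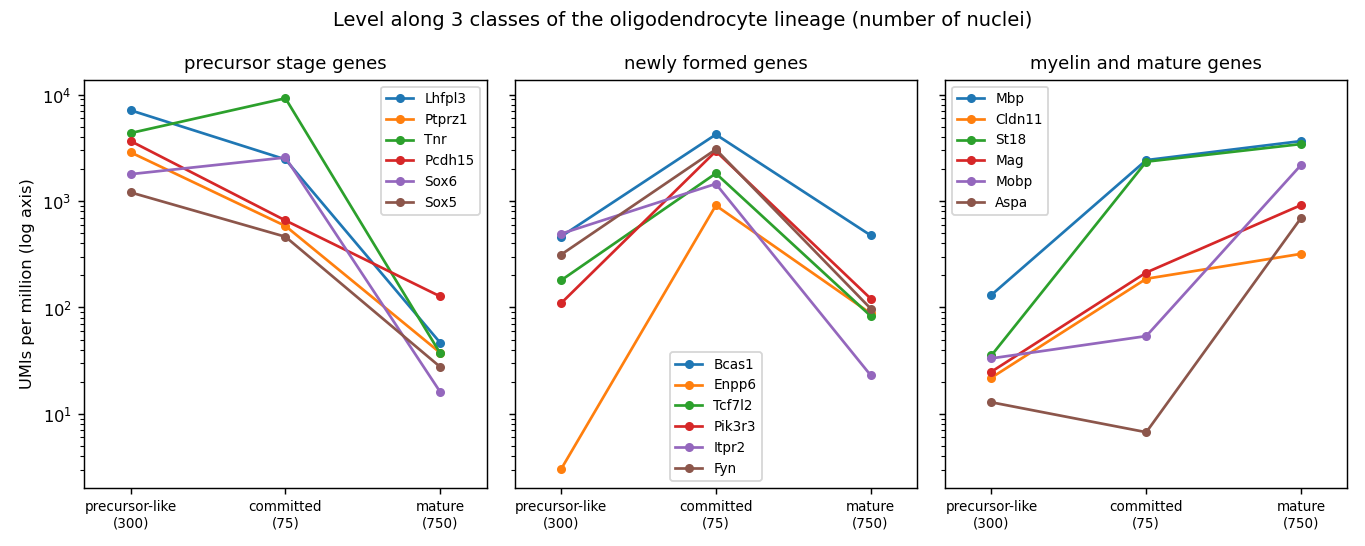
Levels in CPM (log axis) of 18 genes in 300 precursor-like, 75 committed precursor-like and 750 mature oligodendrocyte-like nuclei, joined by lines for each gene. Lhfpl3 helped choose the precursor-like, Bcas1 and Enpp6 the committed precursor-like and Mag, Mobp and St18 the mature nuclei, so their peaks are set by that choice. Mbp and Cldn11 are near their mature level in the committed class, while Aspa is at 6.73 there and at 693 in the mature class.

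A residue of the committed stage within the mature class was looked for with Enpp6, a choline phosphodiesterase gene of newly forming oligodendrocytes. It had 73.1, 76.3, 139.9 and 56.2 CPM in oligodendrocyte-like nuclei of libraries 1 to 4 against 6.98, 4.65, 8.32 and 5.48 in the other nuclei. Library 3 had the highest value. An Enpp6 UMI was found in 135 of the 750 nuclei, and 14 nuclei had at least 3, of which 10 were in library 3 and 3, 0 and 1 in libraries 1, 2 and 4. In those 14 nuclei Tcf7l2 was at 66.6 CPM (4 UMIs), against 81.5 in the 615 nuclei with no Enpp6 UMI and 1819 in the committed class. Fyn was at 83.2 CPM (5 UMIs) against 101 and 3057. Both genes were below their level in the committed class, which was itself chosen by markers that include Enpp6. Against the 615, the newly formed genes Mpzl1 (200 against 111), Tmem163 (216 against 171) and Rnf122 (66.6 against 47.5) were higher in the 14. Bcas1, Itpr2, Pik3r3, Nfasc and 9630013A20Rik were lower. Apod (799 against 345) and Trf (1515 against 707) were also higher. Ptgds (566 against 1649) and Opalin (16.6 against 217) were lower. The 14 nuclei were picked after values had been seen and their counts are small.

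Within the class, a set of genes went with or against Opalin. An Opalin UMI was found in 247 of the 750 nuclei, with 64, 62, 72 and 49 in libraries 1 to 4. The share was 32.9% against 2.48% of the other kept nuclei, and 14.1% against 0.434% with each nucleus thinned to 1000 UMIs. Nuclei with an Opalin UMI were deeper, with a median of 3277 UMIs against 2716 in the 503 without. Of 2259 genes with at least 200 UMIs, 25 (1.11%) were called higher and 24 (1.06%) lower with Opalin. Mbp was not among them, with a log2 ratio of 0.34. The split and the genes named from it were chosen after values had been seen.

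Man1a, a Golgi mannosidase gene, had 1274, 658, 661 and 1075 CPM with Opalin in libraries 1 to 4, against 284, 159, 80.6 and 352 without (log2 ratio 2.05, 1.86 to 2.24). Synpr, a vesicle protein gene, had 635, 517, 379 and 550.3 with Opalin against 177, 113, 88.9 and 131 without (1.97, 1.73 to 2.22). Nckap5 had 383, 375, 437 and 225 against 38.6, 162, 36.1 and 125 (2.07, 1.77 to 2.37). For all 3 genes every library was higher with Opalin than the highest library was without. The adhesion gene Kirrel3 (1.49), the ephrin receptor gene Epha4 (1.52), Pik3r3 (1.13) and Tmem163 (1.04) were also higher. On the lower side Enpp6 had 4.35, 9.75, 48.2 and 30.3 with Opalin against 109, 116, 214 and 74.7 without (-2.36, -3.04 to -1.74). Hapln2 had 82.6, 97.5, 103 and 69.3 against 347, 199.7, 283 and 262 (-1.65), and Anln 209, 199.8, 331 and 259.98 against 731, 619, 817 and 619.6 (-1.45, -1.66 to -1.25). These ranges did not overlap either. Spock3, a proteoglycan gene, was at -2.06, the guidance receptor gene Robo1 at -1.69 and Apod, which codes for the lipid carrier apolipoprotein D, at -1.17.

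**Figure D4:**
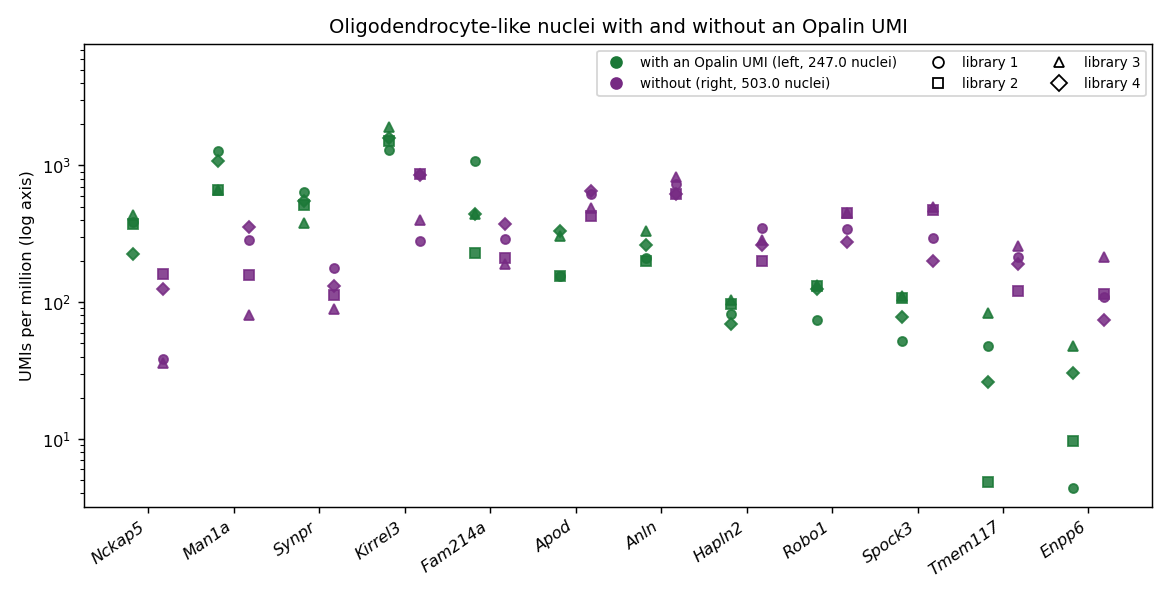
Levels of 12 genes in CPM (log axis) in oligodendrocyte-like nuclei with an Opalin UMI (green, left of each pair) and without (purple, right), with 1 point for each of libraries 1 to 4. Man1a and Synpr are higher with Opalin in each library, while Enpp6, Hapln2 and Anln are lower in each.

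The same nuclei were also split by Apod, found in 403 of them at a median of 3032 UMIs, against 2698 in those without. With an Apod UMI, 14 genes (0.62% of 2259) were higher and 13 (0.575%) lower. Enpp6 was at 132 with Apod and 33.2 without (1.99, 1.47 to 2.55), and Man1a at 331 and 688 (-1.05, -1.23 to -0.88). Spock3 was at 1.33 with Apod and -2.06 with Opalin, Tmem117 at 1.66 and -2.17, and Nckap5 at -1.47 and 2.07. Without libraries 1, 2 and 3 in turn, 6, 8 and 9 genes were higher with Apod. Both splits divide the same 750 nuclei, so they share their counts. Per nucleus, Apod was detected in 44.5% of the nuclei with Opalin against 58.3% of those without, and with thinning to 1000 UMIs in 13.2% against 29.8%. Enpp6 was detected in 7.69% against 23.1%, and after thinning in 0 of 106 nuclei against 7.92%. The long non-coding gene 9630013A20Rik had the largest lower ratio with Apod (-3.40), but 141 of its 209 UMIs in library 2 came from 1 nucleus.

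Il33, found in 273 nuclei, gave another split, with 6 genes (0.266%) higher and 16 (0.708%) lower. The small GTPase gene Rhoj had 123, 369, 629.9 and 307 CPM with Il33 in libraries 1 to 4, against 81.3, 66.2, 36.05 and 159.5 without (log2 ratio 2.22, 1.92 to 2.53). Fmn1, a formin gene, was at 1.45 and Abca8a at 1.08. Robo1 was lower at -1.21 and Nckap5 at -1.501. Apod was detected in 53.5% of nuclei with Il33 and in 53.9% of those without, and with thinning in 26.1% and 27.8%. The counts of all 3 splits fell when nuclei were thinned to 1000 UMIs. They fell to 2 higher and 4 lower for Opalin, 0 and 1 for Apod, and 0 and 0 for Il33. The minimum of 200 UMIs was kept, so thinning left fewer genes to call. Without library 1 the Opalin split had 11 genes higher and without library 3 it had 15. The Il33 split had 3 genes higher without library 2 and 1 without library 4, and 9, 10 and 7 genes lower without libraries 1, 2 and 3.

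The receptors for the drug and for fast transmission were then read in the oligodendrocyte-like nuclei. Of 11 serotonin receptor genes tested, 1 was called higher and 6 lower, against 16% and 24.8% of all genes. Their median log2 ratio was -2.02. Htr2a, the main target of DOI, had 15 UMIs in all 750 nuclei and 7.46, 5.45, 3.08 and 9.06 CPM in libraries 1 to 4, against 38.7, 41.9, 40.6 and 45.05 in the other nuclei (log2 ratio -2.76, -3.60 to -2.04). It was detected in 1.87% of these nuclei against 22.5% of the others, and in 0.667% against 3.48% after thinning. Htr1f had 14.9, 9.08, 12.3 and 18.1 CPM against 268, 269, 229.6 and 285 (-4.30, -4.84 to -3.81), and Htr2c was at -3.70. Htr4 had no UMI, against 33.9 CPM in the others, so its level was at most 0.0365 of theirs on the floor of 3 UMIs. Htr2b, with 118 UMIs, was at 48.7 against 41.4 CPM and not called (0.23, -0.041 to 0.498). It overlaps Psmd1 on the opposite strand. Htr1a, a receptor for serotonin that couples to Gi proteins, was called higher on 12 UMIs (1.88, 0.90 to 2.72), with 4.95 against 1.34 CPM and 1 UMI in each of 12 nuclei.

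Of 30 glutamate and GABA receptor genes, 26 were called lower, 1 higher and 3 not called, with a median log2 ratio of -3.11. Over all genes 24.8% were lower and 16% higher. The sum of pan-neuronal markers was 9.57% of that in the other nuclei, and its part in these low levels was not tested. Grm3 was the gene called higher, with 1271, 1411, 1530.03 and 1196 against 373, 395, 368 and 365 CPM (1.85, 1.80 to 1.90). Grik2, a kainate receptor subunit gene, was at 1075, 1304, 1507 and 1136 against 1206, 1272, 1082 and 1167 CPM and not called (0.075, 0.023 to 0.13), and neither was the GABA-B receptor gene Gabbr1 (0.54). Gria2, which makes AMPA receptors impermeable to calcium, had 346, 314, 206 and 375 against 1645, 1590.1, 1788 and 1558 CPM (-2.40, -2.502 to -2.29). Gabrg3, a GABA-A subunit gene, was the lowest at -5.68 (-6.11 to -5.28). Compared with precursor-like nuclei, 14 of 26 tested were lower, against 15% of all genes. Gria2 was at -2.66 and Grm5 at -3.43, while Grm3 was higher at 3.43.

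Among stress and glucocorticoid response genes 11 of 19 tested were called higher and none lower, against 16% and 24.8% of all genes. Their median log2 ratio was 1.28. Tsc22d3, a glucocorticoid-induced gene also called Gilz, had 298, 222, 266 and 225 against 10.4, 8.004, 7.29 and 10.03 CPM (log2 ratio 4.79, 4.65 to 4.93). Fkbp5, a chaperone of the glucocorticoid receptor and a target of it, had 263, 259.6, 255 and 341 against 72.4, 58.97, 68.1 and 66.1 (2.07, 1.95 to 2.18). Both were higher in each library, and both were also higher than in precursor-like nuclei, at 5.08 and 1.13. Pdk4, a brake on pyruvate oxidation, reached 4.51, Errfi1 2.58 and Sgk1, a kinase induced by glucocorticoids, 1.59. The receptor gene Nr3c1 itself was not called at 0.28 (0.13 to 0.42). Ddit4, an inhibitor of mTOR signalling, had 65.6, 16.3, 47.7 and 36.2 against 4.74, 3.60, 2.87 and 4.21 CPM (3.42), with its lowest value in library 2. Of 19 immediate early genes tested, 1 was called higher, 4 lower and 14 not called, against 16% higher and 24.8% lower over all genes, so the share lower was near that of all genes. The 1 was Jun (1.09), which was 0.92 without library 2 and then not called, and Fos was at -0.064 (-0.65 to 0.46).

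Of 22 immune and injury genes tested, 11 were called higher and 3 lower, against 16% and 24.8% of all genes. Their median log2 ratio was 1.11. Il33 had 180.5, 329, 348 and 277 against 3.32, 3.81, 3.79 and 3.59 CPM (log2 ratio 6.29, 6.11 to 6.46), with its lowest value in library 1. C4b, a complement component, had 31.3, 114, 67.7 and 119.6 against 2.18, 3.78, 3.61 and 5.61 CPM (4.35, 4.10 to 4.59), and again library 1 was lowest. Plin4, a lipid droplet gene, reached 5.23, and Serpina3n, a protease inhibitor of reactive glia, 3.08 on 60 UMIs. C4a was counted among the 3 lower, but at 0 UMIs against 1.44 CPM in the others its difference was not detectable at this depth. The phagocytic receptor genes Mertk and Lrp1 were lower at -2.80 and -2.15. In the 97 nuclei taken with the 1% mitochondrial limit, of which 43 are among the 750, Mertk was higher at 1.20.

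Outside the lists, among genes with at least 500 UMIs in the nuclei compared and leaving out predicted (Gm, Rik), mitochondrial and ribosomal names, the largest ratios on the higher side were those of Galnt5 (log2 7.11), Sec14l5 (7.08), Slc13a1 (6.90), D7Ertd443e (6.70) and Fbxw15 (6.63). Galnt5, a gene for an O-glycosylation enzyme, had 184 against 1.34 CPM, and its 3′ end overlaps that of Ermn on the opposite strand. Sec14l5, a gene for a lipid transfer domain protein, had 837 against 6.18, and Slc13a1, a sulfate transporter gene, 355 against 2.97. The next 5 were Plekhg3, Olfml1, the hedgehog-binding gene Hhip, the stearoyl-CoA desaturase gene Scd3 and the carboxypeptidase gene Cpm, at 6.17 to 6.55. The claudin gene Cldn14, named after its values were seen, was under that minimum at 7.57. On the lower side Taf7l, Trpc5os, F13a1, Scube2 and Apobec1 had no UMI. Taf7l, at 11.2 CPM in the others, was at most 0.111 of that on the floor of 3 UMIs, and the other 4 at most 0.244 to 0.306.

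The 4 libraries differed from each other in the oligodendrocyte-like nuclei more for some genes than for others. Since no library is tied to a sample, these are values of libraries and no comparison of treatments. Over 4684 genes with at least 20 expected UMIs in each library, the highest library was a median of 1.53 times the lowest, and 895 genes (19.1%) were at least 2-fold apart. Of the 895, 533 were lowest in library 3 and 374 highest in library 4, the libraries with the lowest and the highest sum of pan-neuronal markers and mitochondrial share in these nuclei. Nrg3 and Apoe share that lowest and highest library. Apoe, which codes for apolipoprotein E, had 746, 1077, 403 and 1333 CPM in the oligodendrocyte-like nuclei and 268, 369.5, 174 and 451 in the others. The order of libraries was the same in both sets.

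A few genes varied in the oligodendrocyte-like nuclei while the other nuclei were flat, and they were chosen after values had been seen. Of 1455 genes called higher with enough counts, 313 were at least 2-fold apart between libraries, and in 75 of these the other nuclei differed less than 1.5-fold. Pcdh11x, an X-linked protocadherin gene, had 1157, 267, 218 and 725 CPM in libraries 1 to 4, on 776, 147, 142 and 400 UMIs. In the other nuclei it had 134, 130.5, 145 and 135, and in precursor-like nuclei 801, 1055, 836 and 760.2. Libraries 1 and 4 were thus above libraries 2 and 3 in the mature class alone of these 3. Precursor-like nuclei were far above the other nuclei in each library. It was detected in 60.4%, 36.9%, 36.1% and 56.2% of the oligodendrocyte-like nuclei, with at most 54 UMIs in a nucleus. Zfand4, a zinc finger gene, had 243, 116, 93.8 and 322 against 23.2, 22.2, 24.1 and 21.6 in the others. Tma16, a ribosome biogenesis gene, had 163, 54.5, 53.8 and 197 against 12.03, 11.1, 10.96 and 10.9. Both also had libraries 1 and 4 above libraries 2 and 3. Piezo2, a mechanically gated channel gene, had 11.9, 27.2, 105 and 27.2 against 2.64, 2.01, 2.18 and 1.70 CPM, with library 3 highest on 68 UMIs. By contrast Tspan2 and Aspa varied little between libraries, as given above.

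**Figure D5:**
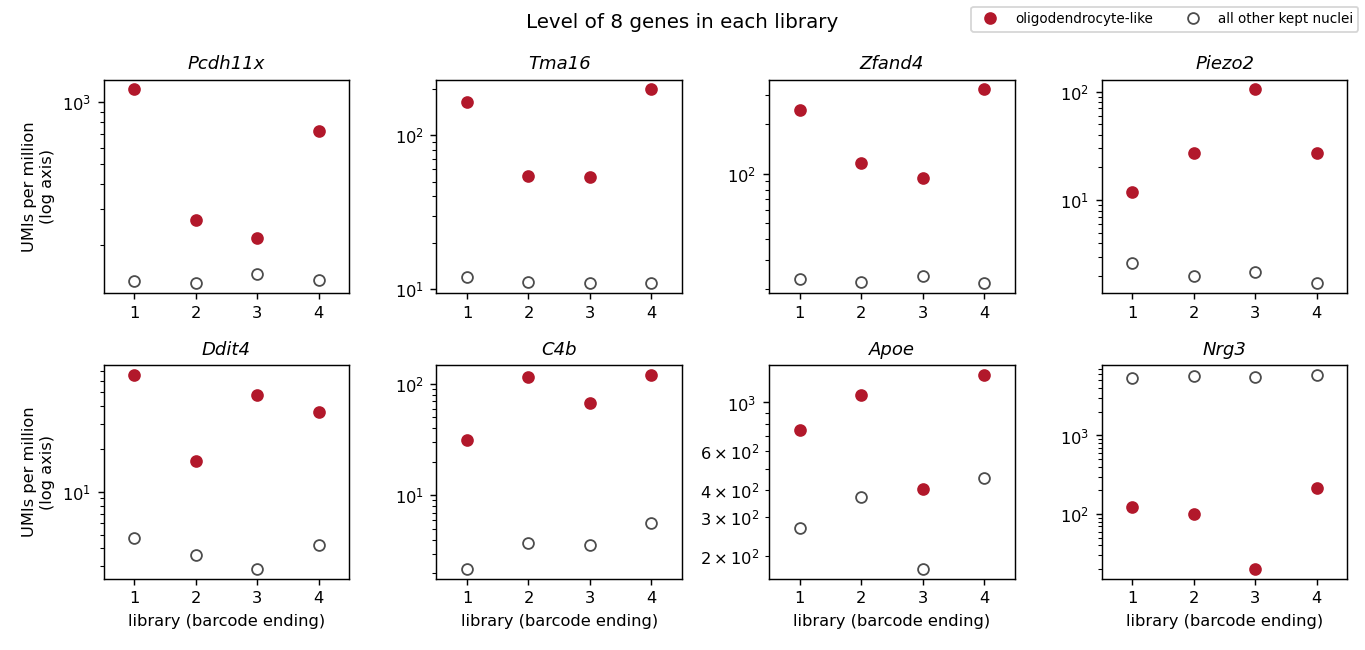
Level of 8 genes in CPM (log axes, with their own range in each panel) by library in oligodendrocyte-like nuclei (filled red) and all other kept nuclei (open grey). Pcdh11x, Tma16 and Zfand4 are highest in libraries 1 and 4 of the oligodendrocyte-like nuclei and flat in the others, while Apoe varies in the same order in both.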

How the data were processed

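Single-nucleus RNA was measured in 4 samples and deposited by the authors as 1 pooled matrix of raw UMI counts, with no normalization. Cell Ranger 7.1.0 and the mm10 build are named in the submitters' processing notes, and whether counting used strand is not given in the sources used here. Of 32285 features other than the 2 reporter constructs, 32158 matched the gene annotation (GENCODE M21, GRCm38), from which overlaps were read.

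Barcodes with at least 500 genes, 800 UMIs and at most 5% mitochondrial UMIs were kept (Python 3.11.15, numpy 2.4.6, scipy 1.17.1, pandas 2.3.3). The score was the mean natural log of 1 plus UMIs per 10000. UMI counts were summed per class. No test was made, since the comparisons use the values that chose the nuclei and the 4 libraries are not tied to samples, and intervals cover counting error only. Scripts were tested on simulated data. Doublets were scored per library with Scrublet (scanpy 1.11.5): 289 kept nuclei, 2 of them oligodendrocyte-like, scored above 0.25 and were not removed. Shares at equal depth used nuclei thinned to 1000 UMIs, which left out 75 of the other kept nuclei.

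The members and gene lists were chosen with earlier results of these data known. From each list, the genes with the most UMIs and the largest called ratios in each direction were to be named, any other list gene could be, and outside the lists, the 10 largest higher and 5 largest lower ratios of genes with at least 500 UMIs, skipping mitochondrial, ribosomal and predicted ones. Alternatives were other class sizes, mitochondrial limits, count minimums, thinning, equal weight per nucleus and leaving out each library.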

Additional observations from a re-analysis of the deposited data

Results flagged for a closer look

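The matrix counts 2 reporter constructs that no comparison above used. TREmcherry, the TRE-driven mCherry construct, had 36 UMIs in the oligodendrocyte-like nuclei, with 8, 12, 1 and 15 in libraries 1 to 4. They fell in 29 nuclei (3.87%, exact binomial 95% interval 2.60 to 5.51), against 8.99% of the other kept nuclei, which were deeper. At an equal depth of 1000 UMIs they were 1.73% and 1.10%, and the levels were 14.9 and 12.0 CPM. The tTA construct had 5 UMIs in 4 oligodendrocyte-like nuclei (0.533%), against 2.80% of the other nuclei, and 2.06 against 4.06 CPM. There are no samples without the constructs to set these levels against, and the part of free RNA in them was not tested.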

How the results depend on the processing

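Each library holds nuclei of every class, but no test paired by library was made, since the comparisons use the values that chose the nuclei. Each library enters a call only through the sign of its own ratio. Against all other nuclei the genes called higher (2686) numbered 592 with the 1% mitochondrial limit, 1775 with equal weight per nucleus and 1289 with thinning, and those lower (4164) numbered 713 with the 1% limit, 2544 with thinning and 12104 with no minimum. Against precursor-like nuclei the higher (878) numbered 178 with the 1% limit, 465 with thinning, 3590 with no minimum and 345 with a minimum of 500, and the lower (942) 112, 330, 4146 and 269 in that order. Against committed precursor-like nuclei the higher (811) numbered 530, 383, 5420 and 270, and the lower (502) 154, 148, 2011 and 130, in that order. Thinning and higher minimums leave fewer genes to test. The 1% limit left 97 nuclei with at least 3 markers, all of which became members, and 43 of them are among the 750.

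Shares of libraries 1 to 4 were 3.53%, 3.46%, 9.09% and 2.10% with 500 members, 2.41%, 1.42%, 4.52% and 0.829% with the 1% limit and 4.44%, 3.72%, 9.38% and 2.77% with a limit of 20%. With 1000 members they were 8.41%, 7.51%, 12.7% and 4.43%.

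The splits and their alternatives were chosen after seeing the data. Leaving out each library gave 11 to 30 higher and 17 to 28 lower for Opalin, 6 to 11 and 9 to 14 for Apod, and 1 to 5 and 7 to 12 for Il33. A minimum of 100 gave 39 and 42 for Opalin, 27 and 25 for Apod, and 11 and 30 for Il33. Thinning, with the minimum of 200 UMIs kept and so fewer genes to call, gave 2 and 4 for Opalin. It gave 0 and 1 for Apod, and 0 and 0 for Il33.

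Directions reversed with the 1% limit against all other nuclei for Sox6 (1.27), Fyn (1.20), Lhfpl3 (0.15), Tnr (0.26), Rras2 (0.86), Cemip2 (1.62) and Mertk (1.20), and for Cemip2 with 1000 members (0.55). Against precursor-like nuclei Gabrg3 reversed with the 1% limit (0.16) and Grin2a with 1000 members (1.18). Against committed precursor-like nuclei Nrg3 (1.22), Ntrk3 (1.81), Pcdh15 (2.32) and Gabrg3 (2.09) reversed with the 1% limit, and Nrg3 (0.30) with the 20% limit. The cause was not tested. These counts cover the genes picked for naming by most UMIs or largest ratio, which are not all genes named above. Against all other nuclei 1584 values kept the call, 65 lost it, 3 gained one and 8 reversed. In that order there were 1298, 33, 9 and 2 against precursor-like and 1053, 39, 21 and 5 against committed precursor-like nuclei. A gene not called in both settings was counted as kept whatever its sign.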
